A study of Mus musculus with 6 samples.

Results

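The 10 genes described here mark the making of new neurons in the adult hippocampus, from stem cells (Nes, Sox2) through dividing progenitors (Eomes, Ccnd2, Neurod1) to immature neurons (Dcx, Sox11, Sox4, Igfbpl1, Draxin). They were taken as named genes, and every probe set whose only gene symbol was one of these names was read, which gave 37 of the 45037 probe sets compared. Each of the 10 genes had at least 1 probe set, out of 18193 genes with a probe set of their own. Hippocampal total RNA came from 3 IκBα-deficient mice (IκBαfl/-;Nestin-Cre) and 3 littermate control mice (IκBαfl/-), all 2 to 3 months old. In both groups the gene for IκBα was floxed on 1 chromosome and null on the other, so the controls too had 1 functional copy less than wild type. Cre was present in the deficient animals and absent from the controls, so an effect of the recombinase itself and of the deletion cannot be told apart. The labels name Nestin as the driver of Cre, which is active in the neural lineage and thus in the neurons and glia that descend from it.

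In the adult dentate gyrus, radial glia-like stem cells in the subgranular zone divide and give rise to intermediate progenitors, which become neuroblasts and then granule neurons. Each step has its own transcription factors: Sox2 keeps stem cells undifferentiated, Eomes (Tbr2) marks intermediate progenitors, Neurod1 drives neuronal differentiation, and the related SoxC factors Sox4 and Sox11 switch on genes of young neurons such as Dcx. NF-κB, which IκBα holds in the cytoplasm, is a transcription factor of inflammation that is also active in neural cells. The question here was whether transcripts of this lineage differed in the hippocampus of the IκBα-deficient mice. Many of these genes are not private to the lineage. Sox2 is also made by astrocytes and ependymal cells, Nes by vascular cells, Neurod1 by mature granule neurons and Ccnd2 by other neurons and glia.

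The region around the start of the genes was searched for letters that bear on the study's manipulation, the consensus site of NF-κB, and for short motifs of the lineage's own factors. RefSeq (GRCm38.p6) gave 9 promoters for 8 of the 10 members, each 300 bases long, from 250 before the start to 50 after it. They are shown for the genes on which the results below turn, with the promoter of Nfkbia, the gene of IκBα and a known NF-κB target, beside them. Capitals mark the NF-κB consensus (read on both strands) in Nfkbia and CAGCTG, an E-box letter sequence that reads the same on both strands, in Sox11 and Sox4. They lie, on the plus strand for Sox2 and on the minus strand for the others, at chr3:34649745-34650044 (Sox2), chrX:143933170-143933469 (Dcx, the first of 2 listed starts), chr12:27342669-27342968 (Sox11), chr13:28953650-28953949 (Sox4) and chr12:55492598-55492897 (Nfkbia).
Sox2: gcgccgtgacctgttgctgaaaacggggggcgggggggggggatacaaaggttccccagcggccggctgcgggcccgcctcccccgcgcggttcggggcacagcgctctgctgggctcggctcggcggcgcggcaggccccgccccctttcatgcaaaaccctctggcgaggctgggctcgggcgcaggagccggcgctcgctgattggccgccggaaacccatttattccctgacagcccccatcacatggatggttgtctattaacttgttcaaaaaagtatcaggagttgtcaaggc
Dcx: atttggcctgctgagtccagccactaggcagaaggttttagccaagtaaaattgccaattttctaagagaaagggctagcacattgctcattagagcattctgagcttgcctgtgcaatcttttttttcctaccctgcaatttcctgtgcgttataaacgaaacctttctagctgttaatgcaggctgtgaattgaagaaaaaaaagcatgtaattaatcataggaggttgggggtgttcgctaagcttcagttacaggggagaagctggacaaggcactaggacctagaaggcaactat
Sox11: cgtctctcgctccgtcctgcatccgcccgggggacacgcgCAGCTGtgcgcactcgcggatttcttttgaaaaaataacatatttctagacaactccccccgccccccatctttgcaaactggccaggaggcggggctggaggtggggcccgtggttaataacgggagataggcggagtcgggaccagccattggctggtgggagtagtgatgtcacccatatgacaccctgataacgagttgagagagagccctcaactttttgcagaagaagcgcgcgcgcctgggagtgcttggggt
Sox4: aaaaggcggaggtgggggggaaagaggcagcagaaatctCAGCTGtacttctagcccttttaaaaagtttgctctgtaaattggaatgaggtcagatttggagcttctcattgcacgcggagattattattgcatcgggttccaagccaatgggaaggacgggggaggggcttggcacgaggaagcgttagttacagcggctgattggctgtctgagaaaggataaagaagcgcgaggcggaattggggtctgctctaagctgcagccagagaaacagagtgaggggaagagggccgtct
Nfkbia: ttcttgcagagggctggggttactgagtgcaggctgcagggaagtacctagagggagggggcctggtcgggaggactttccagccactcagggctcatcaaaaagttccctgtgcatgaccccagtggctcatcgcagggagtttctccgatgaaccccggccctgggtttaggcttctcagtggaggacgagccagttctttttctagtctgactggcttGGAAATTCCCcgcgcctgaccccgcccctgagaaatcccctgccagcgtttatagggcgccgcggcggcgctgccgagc

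The NF-κB consensus was found in 0 of the 9 member promoters and once in that of Nfkbia, where it began 29 bases before the start. Of all 32851 promoters of the same length, 4.51% held it. CAGCTG stood in the promoters of Sox11, Sox4 and Draxin, and in 16.3% of all promoters. In Sox11 it began 210 bases before the start and in Sox4 211 bases before it. Another E-box, CAGATG (17.2% of all promoters), and ACAATG (12.6%), a form of the Sox core, were in none of the 9 member promoters. Both were read on either strand, and other forms of the Sox core were not searched. No match overlapped another, and a match is a run of letters, not a shown binding site.

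Values are RMA log2 values, relative levels on which 1 unit is a doubling, and each difference is IκBα-deficient minus control with the standard error of limma's moderated fit. Array medians lay between 6.08 and 6.12, and the arrays correlated at 0.992 to 0.998 across probe sets. As a check of the labels, 4 of the 5 probe sets of Nfkbia were lower on every deficient array than on every control array. Differences of those 4 ran between -1.83 and -1.40, and 3 of them passed the test of limma, with Benjamini-Hochberg adjustment over all probe sets and a threshold of 0.05. The fifth differed by -0.35 with overlapping groups. Which of the 5 lie in the deleted part is not known. The 10 markers of hippocampal neurons averaged 10.81 to 10.90 on deficient arrays and 10.84 to 10.99 on control arrays. Some arrays stood apart. On IκBα-deficient array 2 the control transcripts read 2.02 higher at their 3′ than at their 5′ end, beside 0.56 to 0.73 on the 5 others. Choroid plexus markers averaged 8.76, 8.13 and 7.78 on the deficient arrays, against 7.89, 5.82 and 5.77 on the control arrays, so control array 1 resembled the deficient arrays in these markers.

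None of the 37 member probe sets passed the test: 0 had an adjusted p under 0.05 (limma), all had an adjusted p of 1.00, and a test without moderation also called 0. Over all probe sets, 0.00666% passed, which were the 3 of Nfkbia named above. At an unadjusted p under 0.05 there were 2 of 37, Sox2 and 1 probe set of Sox11, where 3.34% of all probe sets reached that level. The deficient arrays lay wholly above the control arrays for 2 of the 37 (4.76% of all probe sets), in Sox2 and Dcx, and wholly below them for 3 (3.68% of all), in Nes, Sox11 and Sox4. By sign, 11 of the 37 were higher and 26 lower, with a median difference of -0.04, beside 22412 higher and 22625 lower and a median of -0.0005 over all probe sets. Counted once per gene by the brightest probe set, 6 were higher and 4 lower, with a median of 0.03, beside 0.01 over all genes. Sox11, Sox4 and Ccnd2 hold 21 of the 37 probe sets. In whole tissue, fewer cells of a type and less RNA per cell cannot be told apart.

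**Figure D1:**
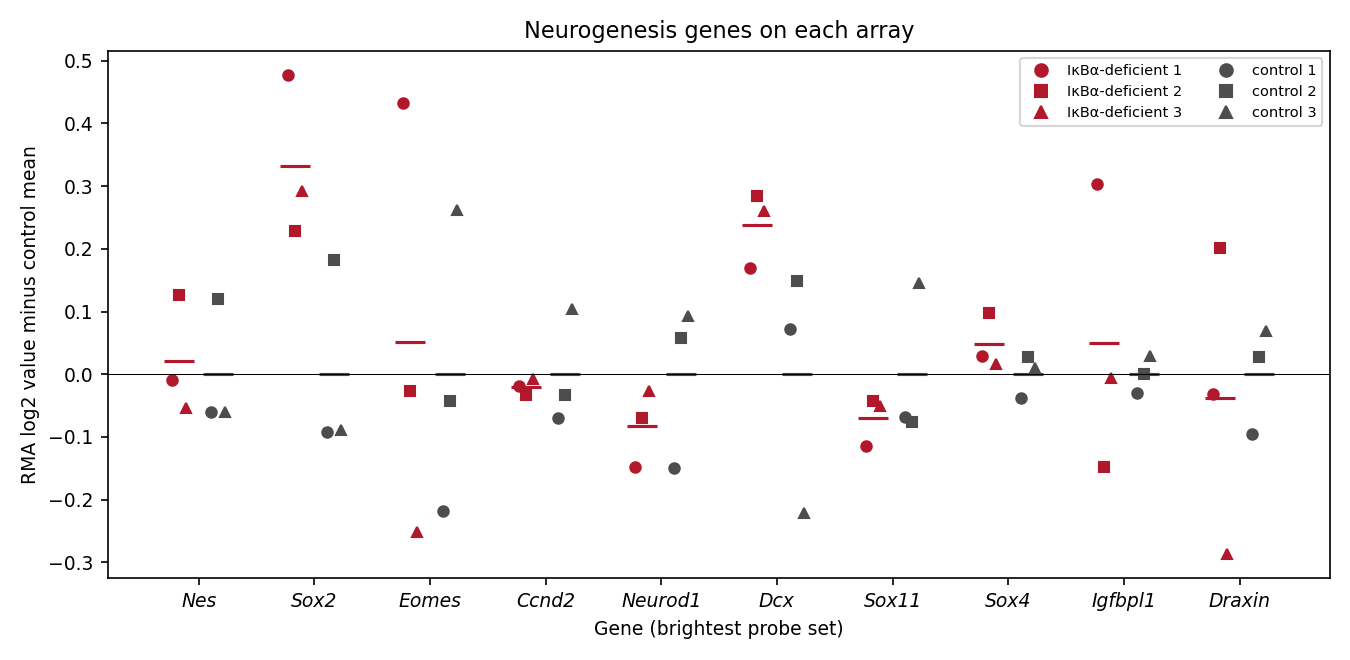
RMA log2 values of the brightest probe set of each of the 10 genes, minus the control mean, on the 3 IκBα-deficient arrays (red) and the 3 control arrays (grey), with symbols for the array number and bars for the group means. For Sox2 and Dcx the red points lie wholly above the grey ones, and the other 8 genes overlap.

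The array precision sets what could be seen. Half-widths of the 95% interval of a member's difference ran from 0.16 to 0.74 on the log2 scale, with a median of 0.20, beside 0.22 over all probe sets. These intervals are not adjusted for the number of probe sets. In 15 of the 37 the mean lay under every array median, where the background compresses differences, and for Eomes, Igfbpl1 and Draxin this held for the brightest probe set too.

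**Figure D2:**
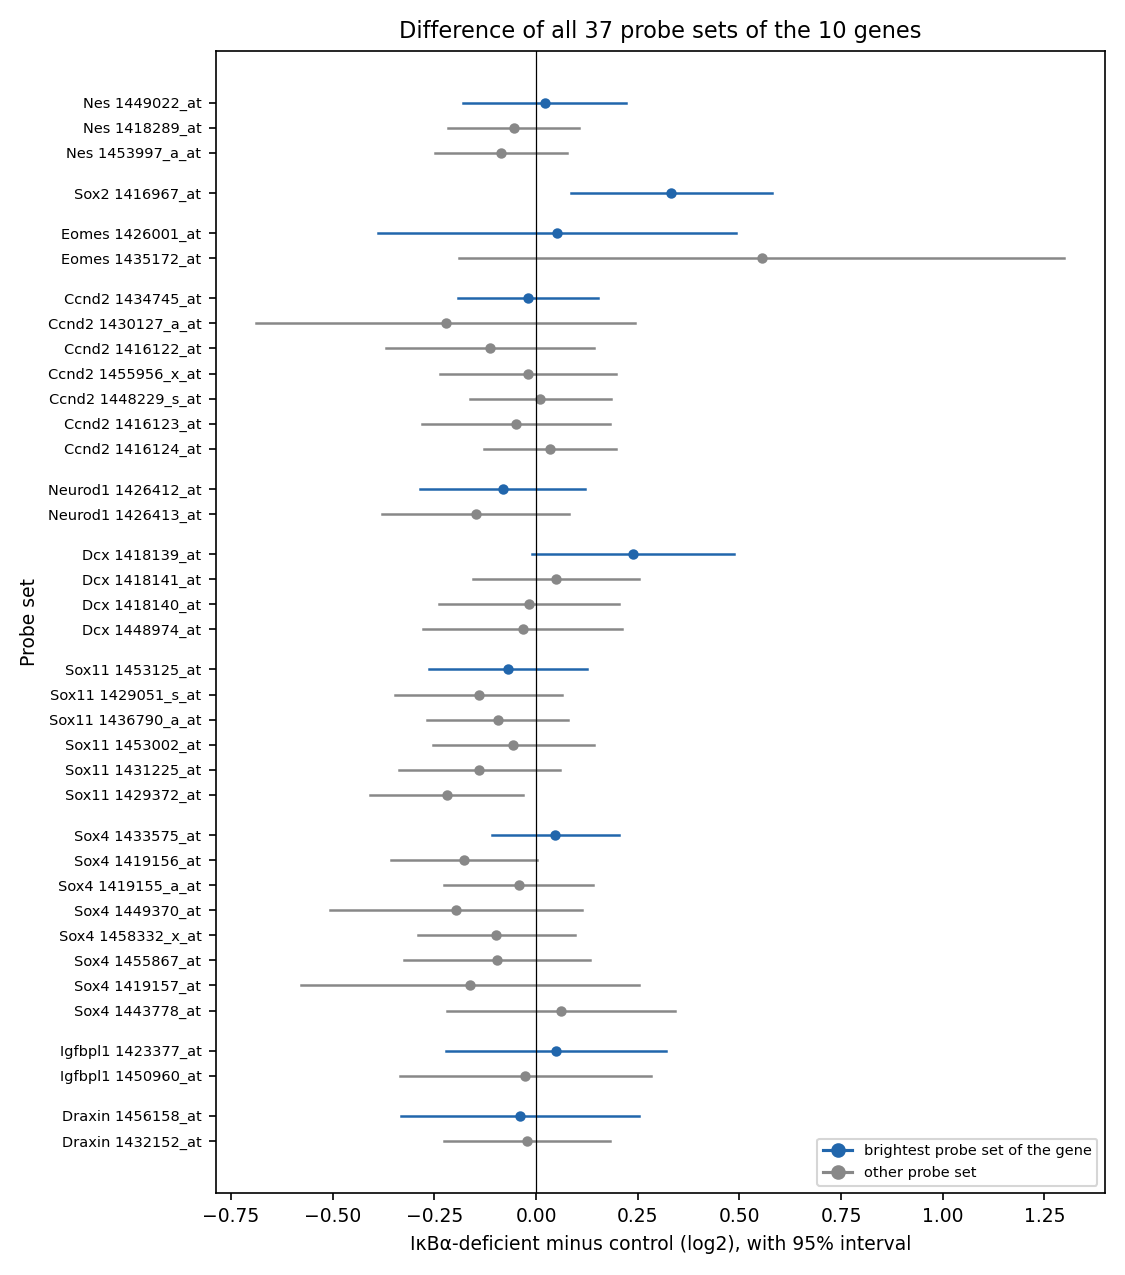
Difference between IκBα-deficient and control arrays (log2) for each of the 37 probe sets, with its unadjusted 95% interval from limma (n = 3 arrays per group). Blue marks the brightest probe set of a gene. The intervals of Sox2 and of Sox11 1429372_at leave out 0, and those of the other 35 include it.

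Among the stem cell genes, Sox2, the transcription factor of stem cells and astrocytes, had the largest difference of any brightest member probe set. Its 1 probe set (1416967_at) read 10.37, 10.13 and 10.19 on the deficient arrays, against 9.80, 10.08 and 9.81 on the control arrays. The groups did not overlap, although the lowest deficient array and control array 2 stood 0.05 apart. The difference was 0.33 ± 0.11 (SE), or 1.26-fold higher, with an adjusted p of 1.00 and an unadjusted p of 0.0151 (limma). It ranged from 0.26 to 0.42 with each array left out in turn.

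Markers of other cells that make Sox2 were measured on the same arrays. Of 7 astrocyte genes, 3 were higher and 4 lower (median -0.04), with list means of 11.24 to 11.33 on deficient arrays against 11.21 to 11.24 on control arrays. Those with the smallest p were Aqp4, the astrocyte water channel, at 0.45, and Gfap, the astrocyte filament, at 0.30. Next came S100b at -0.14 and Slc1a2 at -0.11, both wholly lower on the deficient arrays. All 6 ependymal genes were higher (median 0.20), with list means of 8.58, 8.04 and 8.28 on deficient arrays against 8.20, 7.95 and 8.19 on control arrays. The ependymal genes with the smallest p were Pltp, a lipid transfer protein, at 0.24, and Foxj1, the factor of motile cilia, at 0.21. Their part in the Sox2 value was not tested. Sox2 was highest on IκBα-deficient array 1, which also had the highest choroid plexus mean (8.76) and ependymal mean (8.58). Among control arrays it was highest on array 2, whose choroid plexus mean was 5.82. With the choroid plexus mean as a covariate the Sox2 difference was 0.37. That mean itself differed between the groups, so this fit cannot separate it from genotype.

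Nes encodes nestin, the intermediate filament of neural stem cells. Its brightest probe set (1449022_at) read 7.32, 7.46 and 7.28 on deficient arrays, against 7.27, 7.45 and 7.27 on control arrays. The groups overlapped fully and differed by 0.02 ± 0.09 (SE), with an interval of -0.18 to 0.22. The second, 1418289_at, differed by -0.06. The third, 1453997_a_at, lay wholly lower on the deficient arrays, at 3.89, 3.86 and 3.91 against 3.94, 3.93 and 4.06, under every array median and with a difference of -0.09 ± 0.07 (SE). Markers of pericytes and endothelium, which can also make nestin, were higher in 6 of 8 genes (median 0.11), with the smallest p for Pdgfrb at 0.39 and Anpep at 0.33. Their list means were 8.34 to 8.53 on deficient arrays against 8.25 to 8.35 on control arrays.

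Among the progenitor genes, Eomes, the T-box factor of intermediate progenitors, showed 1 array apart. Its brightest probe set (1426001_at) read 5.79, 5.34 and 5.11 on deficient arrays, against 5.14, 5.32 and 5.62 on control arrays, a difference of 0.05 ± 0.19 (SE). The other, 1435172_at, read 6.28, 5.23 and 4.85, against 4.87, 4.99 and 4.83. It is described for IκBα-deficient array 1, a choice made after its values were seen. That array was the highest of the 6 in both probe sets, the groups overlapped in both, and the second differed by 0.55 ± 0.32 (SE), the widest difference of the 37, with an adjusted p of 1.00 (limma). Without IκBα-deficient array 1 the brightest probe set differed by -0.14. In 1435172_at, deficient array 2 (5.23) still lay above every control array, and deficient array 3 (4.85) lay within their range.

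Eomes is also made by Cajal-Retzius cells, by some neurons of the olfactory bulb and by natural killer and T cells, so their markers were read on the same array. Of 5 Cajal-Retzius genes, 4 were higher (median 0.01), with list means of 6.96 to 7.06 on deficient arrays against 6.84 to 7.01 on control arrays. Ndnf differed by 0.19 and Reln, the secreted guide of migrating neurons, by 0.08. Trp73 differed by 0.002, Lhx1 by 0.009 and Lhx5 by -0.02. Of 6 genes of olfactory bulb and subventricular neurons, 5 were higher (median 0.09). The list is not private to those neurons, and Gad1 in it averaged 12.97. The list mean was highest on IκBα-deficient array 1, at 8.47 beside 8.21 to 8.31 on the 5 others. The choroid plexus (8.76) and ependymal (8.58) means were also highest on IκBα-deficient array 1. Sp8, an interneuron factor of that lineage, read 5.75 on that array, 5.02 and 4.80 on deficient arrays 2 and 3, and 4.93, 4.87 and 4.76 on the control arrays, while Dlx5 differed by -0.18. Of 6 lymphocyte genes, 1 was higher (median -0.03), with list means of 4.55 to 4.64 against 4.61 to 4.73, and the 2 with the smallest p were Gzma at -0.17 and Ncr1 at -0.08. The part of any of these cells in the Eomes value was not tested.

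Ccnd2 encodes cyclin D2, which drives the G1 phase in neural progenitors. Its brightest probe set (1434745_at) read 10.58, 10.57 and 10.60 on deficient arrays, against 10.53, 10.57 and 10.71 on control arrays. The deficient arrays lay within the range of the controls, and the difference was -0.02 ± 0.07 (SE), with an interval of -0.19 to 0.15. Of its 7 probe sets, 2 were higher and 5 lower, between -0.22 and 0.03. The widest, 1430127_a_at, rested on IκBα-deficient array 2, at 9.63, while deficient arrays 1 and 3 read 10.39 and 10.38 and the control arrays 10.28 to 10.50. That is the array with the widest 3′ to 5′ gap, and a part of this gap in the value was not tested.

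Neurod1 is the basic helix-loop-helix factor of neuronal differentiation. Its brightest probe set (1426412_at) read 9.77, 9.85 and 9.89 on deficient arrays, against 9.77, 9.97 and 10.01 on control arrays. All 3 deficient arrays lay between control array 1 and the 2 other control arrays, for a difference of -0.08 ± 0.09 (SE). The second probe set differed by -0.15 ± 0.10 (SE), also with overlapping groups, and the brightest turned to 0.11 with the choroid plexus mean as a covariate.

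Dcx encodes doublecortin, the microtubule protein of migrating and immature neurons. Its brightest probe set (1418139_at) read 6.86, 6.97 and 6.95 on deficient arrays, against 6.76, 6.83 and 6.47 on control arrays. The groups did not overlap, and the lowest deficient array stood 0.02 above the highest control array. The difference was 0.24 ± 0.11 (SE), or 1.18-fold higher, with an adjusted p of 1.00 and an unadjusted p of 0.0573 (limma). Control array 3 was the low one, and without it the difference was 0.13. The 3 other Dcx probe sets differed by 0.05, -0.02 and -0.03, with overlapping groups, and their means lay under the array medians. Averaged over its 4 probe sets, Dcx differed by 0.06.

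All 6 probe sets of Sox11 were lower in deficient animals, between -0.22 and -0.06, and none passed over all probe sets. The brightest (1453125_at) read 8.57, 8.64 and 8.63 on deficient arrays, against 8.61, 8.61 and 8.83 on control arrays, so only control array 3 stood off. It differed by -0.07 ± 0.08 (SE), and by 0.003 without control array 3. The probe set 1429372_at read 7.25, 7.11 and 7.29, against 7.36, 7.43 and 7.52, with no overlap. It differed by -0.22 ± 0.08 (SE), which is 1.16-fold lower (adjusted p = 1.00, unadjusted p = 0.027, limma). The 6 probe sets share a gene and 6 arrays, so they are not 6 independent readings. All 6 were lower with control array 1 and IκBα-deficient array 2 both left out, a choice made after seeing the data. That choice drops the control array most like the deficient ones in choroid plexus markers, so it is no independent support. With the choroid plexus mean as a covariate, 5 were lower.

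Sox4, the second SoxC factor, differed in sign between its probe sets. The brightest (1433575_at) read 10.32, 10.38 and 10.30 on deficient arrays, against 10.25, 10.31 and 10.30 on control arrays. That is a difference of 0.05 ± 0.07 (SE) with overlapping groups and the narrowest interval of the 37, -0.11 to 0.20. Of the 8 probe sets, 6 were lower and 2 higher. The probe set 1419156_at read 7.62, 7.72 and 7.77 on deficient arrays, against 7.83, 7.85 and 7.97 on control arrays, with no overlap and a difference of -0.18 ± 0.08 (SE). With the choroid plexus mean as a covariate, 3 of the 8 were lower. Which transcript forms these probe sets read is not given in the sources used here.

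**Figure D3:**
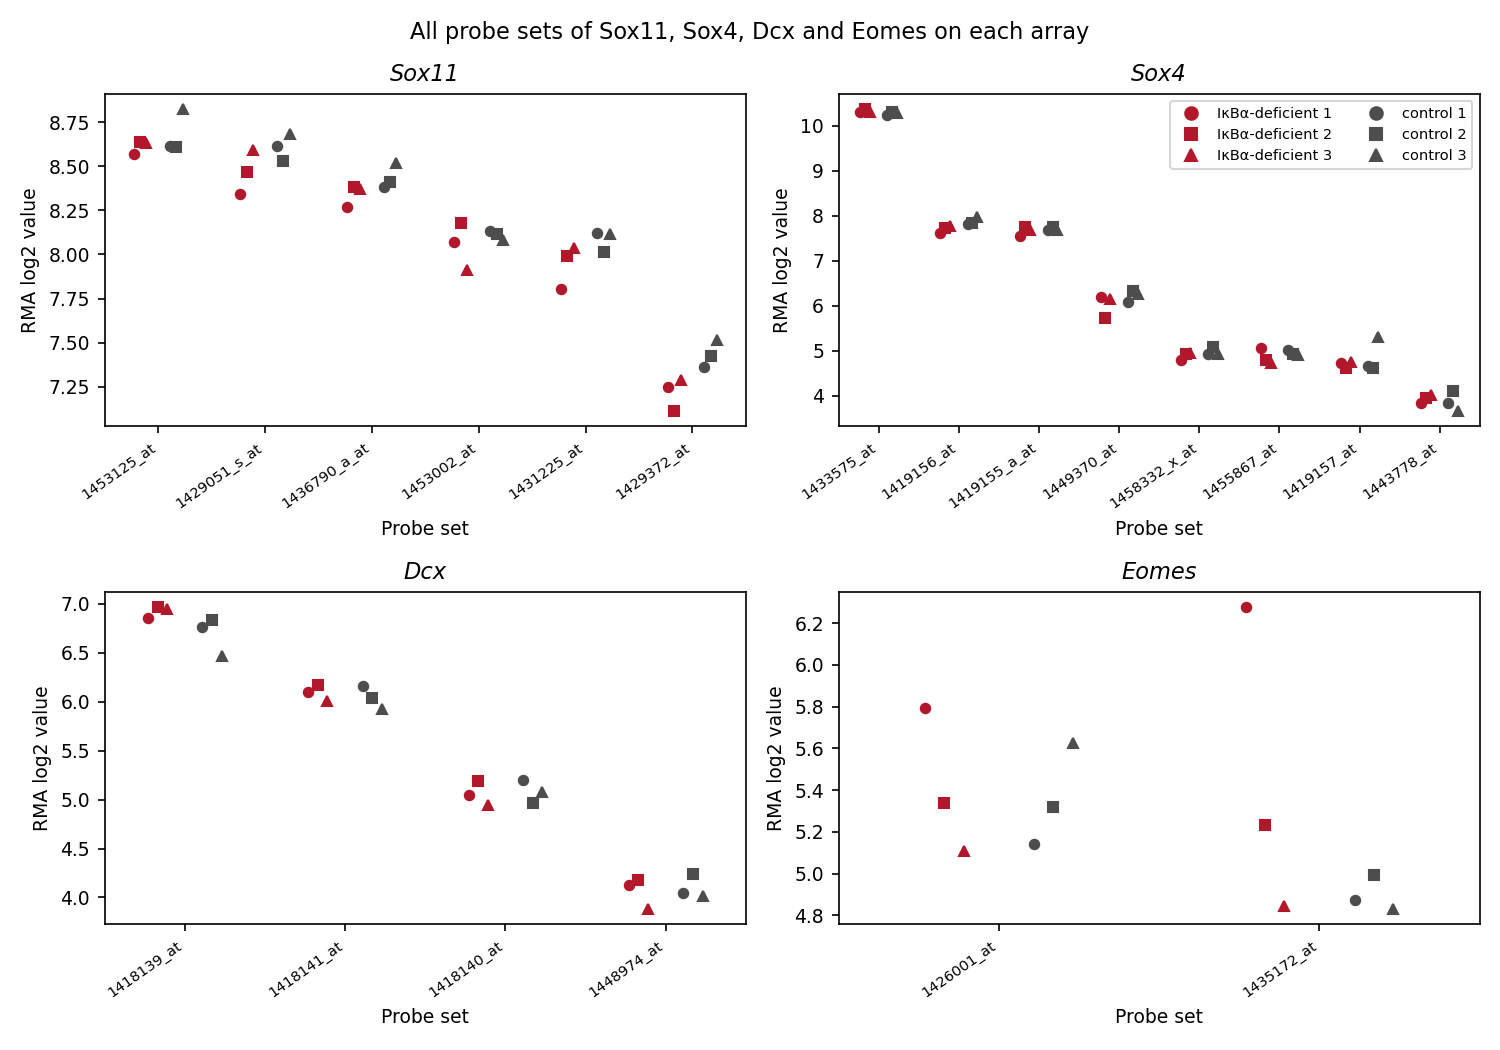
RMA log2 values of all probe sets of Sox11 (6), Sox4 (8), Dcx (4) and Eomes (2) on each IκBα-deficient (red) and control (grey) array. The Sox11 probe sets are lower in mean in red throughout, Dcx separates in its brightest probe set only, and IκBα-deficient array 1 (red circle) stands above the other arrays in both Eomes probe sets.

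Igfbpl1, a secreted protein of the insulin-like growth factor binding family, read 6.29, 5.83 and 5.98 in its brightest probe set (1423377_at) on deficient arrays, against 5.95, 5.98 and 6.01 on control arrays. IκBα-deficient array 1 was the high one, as for Eomes, and the difference was 0.05 ± 0.12 (SE). Its second probe set differed by -0.03. Draxin, a repulsive guidance protein that also blocks Wnt signals, read 5.22, 5.45 and 4.96 (1456158_at), against 5.15, 5.27 and 5.32, and differed by -0.04 ± 0.13 (SE). Its other probe set differed by -0.02, and the groups overlapped in all 4 probe sets of these 2 genes.

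Other genes of the lineage, from lists kept apart from the 10 members, were read by their brightest probe set. None of the 62 values in these 4 lists passed (0 with an adjusted p under 0.05, limma). Over all genes, 3.66% had an unadjusted p under 0.05 (limma) and 52.6% were higher in deficient animals. Of 17 stem and radial glia genes, 13 were higher and 4 lower (median 0.07), and 1 had an unadjusted p under 0.05. That was Vim, the filament vimentin, at 0.28, followed by Sox9, a factor of radial glia and astrocytes, at 0.18. The list is not private to stem cells, and in it Aldoc averaged 13.91 and Slc1a3 11.24. With control array 1 and IκBα-deficient array 2 both left out, 9 of the 17 were higher and the median was 0.02.

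Of 16 progenitor and cell cycle genes, 7 were higher and 9 lower (median -0.03), and 0 had an unadjusted p under 0.05. Those with the smallest p were Birc5, the mitotic protein survivin, at -0.30 with overlapping groups, and Mcm2, a subunit of the replication helicase, at 0.14. The proliferation marker Mki67 read 4.87, 4.56 and 4.47 on deficient arrays, against 4.57, 4.87 and 4.87 on control arrays, dim values that overlap, and was picked after its values were seen. Of 19 immature neuron genes, 12 were higher and 7 lower (median 0.02), and 1 had an unadjusted p under 0.05. This was Neurod6, a factor of pyramidal neurons, at 0.24, followed by Elavl4, an RNA-binding protein of neurons, at 0.18. The list is not private to immature neurons. Neurod6 was also on the hippocampal neuron list, and Stmn1 averaged 13.50, beside 6.80 for the brightest Dcx probe set.

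All 10 genes of mature dentate granule neurons were lower in deficient animals, with a median of -0.13 beside 0.01 over all genes. The list mean was 9.86, 9.81 and 9.90 on deficient arrays, against 9.91, 10.06 and 10.09 on control arrays, with no overlap and IκBα-deficient array 3 within 0.01 of control array 1. Of the 10, 2 had an unadjusted p under 0.05 and 0 passed over all probe sets (limma). Tdo2, tryptophan dioxygenase, differed by -0.38 and lay wholly lower, and Lct, lactase, differed by -0.27. The list was chosen when lower levels of some of its genes on these arrays were already known, so its direction is no independent evidence. With the choroid plexus mean as a covariate, 6 of the 10 were lower.

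**Figure D4:**
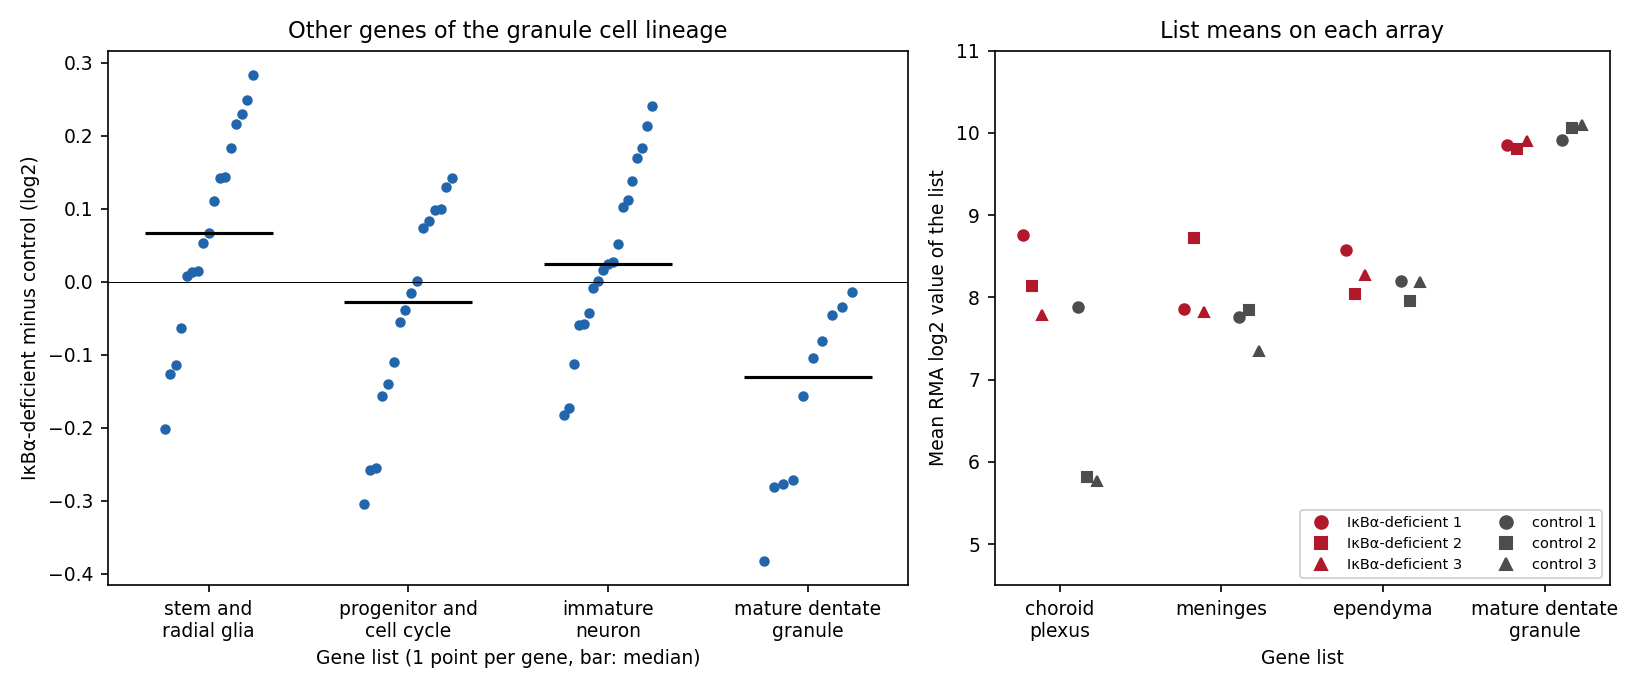
Left: difference between IκBα-deficient and control arrays (log2) for each gene of 4 lists, with the list median as a bar; all 10 mature granule genes lie below 0. Right: mean log2 value of 4 lists on each IκBα-deficient (red) and control (grey) array; the choroid plexus mean of control array 1 (7.89) lies near the deficient arrays.

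The remaining marker lists were read in the same way. They are RNA levels of whole tissue, in which more cells of a type and more RNA per cell cannot be told apart. All 11 measured choroid plexus genes were higher in deficient animals (median 1.56), with the smallest p for Sostdc1 at 1.56 and F5 at 1.92, and all 11 had an unadjusted p under 0.05 with 0 passing over all probe sets (limma). All 10 meninges genes were higher (median 0.35), with the smallest p for Igf2 at 1.22 and Lum at 0.32, with list means of 7.86, 8.72 and 7.82 on deficient arrays against 7.76, 7.85 and 7.34 on control arrays. Oligodendrocyte precursors, which also make Sox4, Sox11 and Ccnd2, showed 3 of 6 genes higher (median -0.03), with Sox10 at 0.12 and Gpr17 at -0.13. Their list means were 9.39 to 9.48 on deficient arrays against 9.42 to 9.50 on control arrays. Microglia showed 4 of 6 higher (median 0.08), with Cx3cr1 at 0.11 and Aif1 at 0.13. Hippocampal neuron markers were lower in 7 of 10 (median -0.07), with Neurod6 at 0.24 and Spink8 at -0.32. The part of these cells in the members' values was not tested.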

How the data were processed

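Total RNA of 6 hippocampi was measured on Affymetrix mouse expression arrays. The authors deposited log2 values made with RMA (background correction, quantile normalization, probe set summary), per the submitters' processing notes; neither its version nor a genome build is given there. Arrays have no read depth, and their number limits precision. Of 45101 probe sets, 64 controls were left out. The platform annotation of GEO, possibly outdated, gave 34945 probe sets with 1 symbol, 932 with several and 9160 with none here. Those with several symbols stayed unnamed. Probe sets of a gene were kept apart, or the one with the highest mean was used.

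Both groups (3 arrays each) were compared with limma 3.58.1 in R 4.3.3 (lmFit, eBayes, two-sided, genotype only), with Benjamini-Hochberg adjustment over all 45037 probe sets and a threshold of 0.05. The series describes pairs of deficient mice and littermates, but the labels do not say that a repeat number marks a pair. The members, 15 lists and tests were chosen with earlier results of these data known. Named were all member probe sets and, per list, the 2 genes with the smallest p, beside Nfkbia and the genes most like Dcx and Sox2. Other list genes, such as S100b, Slc1a2, Gad1, Mki67, Aldoc and Stmn1, were named outside that rule, after their values were seen. As alternatives, single arrays were left out, the repeat number was a block, and there were other normalizations, probe set choices, filters and moderation, array weights, and covariates for choroid plexus, meninges and the 3′ to 5′ gap. The scripts were tested on simulated data. Figures were drawn with matplotlib 3.10.9.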

Additional observations from a re-analysis of the deposited data

How the results depend on the processing

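The count of member probe sets that passed stayed at 0 under all 19 alternatives run, each array left out included. Of the 37 member probe sets, 26 were lower; 21 to 27 of the 37 were with each array left out, 29 of the 37 with control array 1 and IκBα-deficient array 2 both left out (an alternative chosen after seeing the data), 17 of the 25 tested with the dimmest 40% left out, and 4 of 10 with the brightest probe set of each gene only. The last 2 counts come from fewer probe sets tested. The median difference over the members was 0.03, from -0.03 to 0.07 with each array left out.

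The number of all probe sets called lower, 3, ranged from 1 to 4 with each array left out. It was 1 with the meninges covariate and 1 with the 3′ to 5′ covariate. It was 0 with the brightest probe sets only, without moderation and with the choroid plexus covariate. Leaving out both control array 1 and IκBα-deficient array 2 also gave 0. In the fit with array weights, control array 1 had the highest weight, 2.17, and IκBα-deficient array 2 the lowest, 0.46. Called higher were 0, and 0 to 6 with each array left out, with 6 without control array 1.

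Of 209 values of the 10 members' differences under alternatives, 187 kept their sign and 22 turned, none with a call. With each array left out, Nes ranged from -0.031 to 0.081 (-0.0083 without control array 1 or 3), Eomes from -0.14 to 0.20 (-0.058 without control array 1), Igfbpl1 from -0.078 to 0.15, Draxin from -0.16 to 0.085, Ccnd2 from -0.055 to 0.031 and Sox11 from -0.11 to 0.0027. With the choroid plexus covariate, Ccnd2 turned to 0.058, Neurod1 to 0.11, Sox11 to 0.024, Igfbpl1 to -0.0097 and Draxin to 0.017. The meninges covariate gave -0.072 for Nes and 0.022 for Ccnd2, and the 3′ to 5′ covariate -0.035 for Nes. Array weights gave 0.0080 for Ccnd2. The mean of all probe sets gave -0.040 for Nes and -0.083 for Sox4. Without both arrays in doubt, Nes was at -0.061 and Eomes at -0.019. Draxin was not tested with the dimmest 40% left out. The causes were not tested.

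With the repeat number as a replicate block, 0 member probe sets and 2 of all probe sets were called lower, and Sox2 differed by 0.33 (adjusted p = 0.989, limma). Deviations of same-numbered arrays correlated at -0.004, 0.27 and 0.03 for numbers 1, 2 and 3. Those of unlike-numbered arrays ran from -0.33 to 0.29. With so few arrays these values cannot decide whether the numbers pair the animals. The labels do not say so, and the main fit used no pairs.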

Other observations

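Probe sets of the same gene did not always move together across the 6 arrays. The 2 Neurod1 probe sets correlated at 0.87 and the 2 of Eomes at 0.71, as Pearson's r over 6 arrays that hold both groups. The 2 of Igfbpl1 correlated at 0.01, and the 28 pairs among Sox4 probe sets ran from -0.76 to 0.83, with a median of -0.04. The 15 pairs among Sox11 probe sets had a median of 0.59.

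The genes whose brightest probe set was most like Dcx over the 6 arrays were Hoxa2 (r = 0.992), Marveld3 (r = 0.989) and Chchd6 (r = 0.988). Those most like Sox2 were Gm11559 (r = 0.994), Deup1 (r = 0.983) and Wsb1 (r = 0.979). With 6 arrays, 50 genes exceeded an r of 0.95 with Dcx and 18 with Sox2, out of 18193. Hoxa2 and Gm11559 were dim, with means of 3.50 and 3.28.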
